A study of Mus musculus with 4 samples.

Results

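Genes of the major histocompatibility complex (MHC) and of the machinery that loads its products with antigen were followed in RNA-seq of mouse aorta. They were taken by symbol, as every gene whose symbol begins with H2- together with B2m, Cd74, Ciita, Nlrc5, Tap1, Tap2, Tapbp, Tapbpl, Erap1 and Cd1d1. This gave 53 of the 24346 rows in the files. The groups were 2 libraries from GGPPS knockout (KO) aorta and 2 from wild-type (WT) aorta of C57BL/6 mice, all 3 weeks old. The label of each library names both male and female animals. GGPPS, encoded by Ggps1, makes geranylgeranyl diphosphate, a lipid that is attached to small GTPases. The labels do not say in which cells the gene was deleted, nor by which Cre driver or allele, and they do not state how many animals went into each library. The spread behind each p-value is therefore that between deposited libraries, which may be technical.

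MHC class I molecules are made of a heavy chain and the light chain beta-2 microglobulin and present peptides cut in the cytosol to CD8 T cells. Nearly all nucleated cells carry them. MHC class II molecules are pairs of an alpha and a beta chain that present peptides from endosomes to CD4 T cells, and are carried mainly by macrophages, dendritic cells and B cells. Non-classical class I genes, which in the mouse lie in the Q, T and M regions of the H2 complex, encode related molecules with narrower roles, and the CD1 molecules present lipids. Transcription of class I genes is driven by NLRC5 and of class II genes by CIITA, and interferons raise both.

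The values were FPKM, fragments scaled by transcript length and library size, which are levels per length and can be compared between genes. They summed to 611767 and 632918 in the knockout libraries and 515927 and 520478 in the wild-type libraries. Ggps1 was at 1.18 and 1.07 FPKM in the knockout libraries, against 8.96 and 10.55 FPKM in the wild-type libraries, in the direction of the labels. Contractile smooth muscle markers, which define the tissue, were present in all libraries, with Myh11, smooth muscle myosin, at 127 and 211 FPKM in knockout and 976 and 1110 FPKM in wild type. The test was limma with an intensity trend on log2(FPKM + 1), run on the 12314 genes that reached 1 FPKM in 2 or more libraries, with Benjamini-Hochberg adjustment over all of them. A gene was called higher or lower at an adjusted p under 0.05. Fold changes below are on this log2 scale, knockout over wild type, unless a ratio of mean FPKM is named. The added 1 makes them smaller in genes near or under 1 FPKM, so they do not rank low genes against abundant ones. Cd1d1, for example, was 5.31-fold higher by the means, with a log2 fold change of 1.25. Members under 1 FPKM in wild type could be tested only through the knockout libraries. A 0 is reported only as a listed value, since Eln, the elastin gene that aortic cells use heavily, was listed at 0 in all libraries.

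Upstream sequences are shown for 5 genes, a classical class I gene, 2 non-classical ones, the light chain and a class II beta chain, since together they hold each motif searched. Each run covers the 200 bases before a start that RefSeq gives (GRCm38.p6, the mm10 assembly), 5′ to 3′ on the gene's strand. RefSeq starts can differ from those of the GENCODE annotation, which gives the gene positions below. Of the runs shown, 5 bases of H2-T22 and 1 base of B2m lie inside the GENCODE gene. Other windows were searched but are not shown. Those of H2-D1, Erap1, Tapbp, H2-DMa and H2-DMb2 lie wholly inside their GENCODE gene (200 bases). Those of H2-T23 (154 bases), H2-T3 (136 bases) and H2-DMb1 (119 bases) lie mostly inside it, and H2-Q2 has 65 bases inside. Capitals mark matches on either strand to 5 short motifs: the core of the interferon-stimulated response element (GAAA, any 2 bases, GAAA), the core of the class I interferon element (GAANNGAAA), the Y box bound by NF-Y (ATTGG), a core of the X1 box bound by the RFX complex (AGCAAC), and an NF-kappa-B site of 10 bases, which is the first run of capitals in H2-K1 and H2-Q7. The class I interferon element was added after the sequences had been seen, and a match to the longer interferon core can overlap it.
H2-K1 (chr17:34000348-34000547, minus strand): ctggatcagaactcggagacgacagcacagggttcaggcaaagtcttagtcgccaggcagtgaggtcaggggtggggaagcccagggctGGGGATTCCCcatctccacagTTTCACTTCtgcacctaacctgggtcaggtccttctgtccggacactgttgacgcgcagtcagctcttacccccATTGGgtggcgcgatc
H2-Q7 (chr17:35438955-35439154, plus strand): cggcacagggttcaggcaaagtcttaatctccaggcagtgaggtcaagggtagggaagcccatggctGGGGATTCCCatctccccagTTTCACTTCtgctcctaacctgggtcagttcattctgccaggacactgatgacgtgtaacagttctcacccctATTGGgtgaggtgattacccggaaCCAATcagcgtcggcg
H2-T22 (chr17:36042743-36042942, minus strand): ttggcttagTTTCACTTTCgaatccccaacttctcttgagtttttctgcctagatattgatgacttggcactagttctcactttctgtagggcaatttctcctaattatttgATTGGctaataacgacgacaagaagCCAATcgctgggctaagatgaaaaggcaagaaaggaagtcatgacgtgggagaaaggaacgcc
B2m (chr2:122147487-122147686, plus strand): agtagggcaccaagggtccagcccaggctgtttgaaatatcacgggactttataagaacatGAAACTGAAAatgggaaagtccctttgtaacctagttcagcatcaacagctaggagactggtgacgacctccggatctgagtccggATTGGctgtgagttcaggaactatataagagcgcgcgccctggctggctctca
H2-Eb1 (chr17:34305667-34305866, plus strand): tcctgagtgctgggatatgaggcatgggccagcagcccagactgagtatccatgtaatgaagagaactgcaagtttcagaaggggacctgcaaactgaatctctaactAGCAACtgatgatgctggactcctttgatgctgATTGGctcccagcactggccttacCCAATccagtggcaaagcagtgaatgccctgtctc

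Upstream sequence was matched for 35 of the 53 members. ATTGG was found in 30 of these, against 29.3% of 32851 windows of the same length before gene starts, some of which belong to the same gene. Among the 30 are H2-D1, Tapbp, H2-DMa, H2-DMb2, H2-DMb1 and H2-T23, whose windows lie wholly or mostly inside the GENCODE gene. GAANNGAAA was found in 8 members, H2-K1, H2-D1, H2-Q4, H2-Q6, H2-Q7, H2-Q10, H2-M3 and H2-M2, and in 5.00% of all windows. In H2-K1, H2-D1, H2-Q6 and H2-Q7 it reads TTTCACTTC, on the reverse strand, a short distance after the NF-kappa-B site. That site stood in H2-K1, H2-D1, H2-Q6 and H2-Q7, and in 22 of all windows (0.067%). The core of the interferon-stimulated response element was found in B2m, H2-T22 and H2-T23, and in 2.27% of all windows. AGCAAC was found in 4 class II genes, H2-Oa, H2-Ob, H2-Eb1 and H2-Eb2, each of which also held ATTGG, a pairing present in 3.03% of all windows. Of these 4, H2-Eb1 alone reached 1 FPKM in any library. Genes of the Q region and H2-K1 and H2-D1 are copies of each other, so their matches are not independent, and a match is a description of letters, not of binding.

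Of the 53 members, 29 passed the filter and 24 did not. Among those tested, 26 were higher in knockout, 1 was lower and 2 were not called. Of all genes tested, 35.2% were called higher and 30.6% lower. When column totals were made equal, 25 members were higher and 1 lower, while the split of all genes moved to 3095 higher and 5620 lower, against 4332 and 3764 as deposited, and the median of all genes tested moved to -0.20, against 0.03. In 32 of the 53 members, tested or not, both knockout libraries lay above both wild-type libraries, and in 2 they lay below. The 26 members called higher were among the 32. Over all genes tested the shares were 43.6% and 39.6%, but these leave out genes below the filter, so they do not compare directly with counts over the 53. The median fold change was 1.43 over tested members and 0.49 over all 53, of which 12 were listed at 0 in every library. Of the 29 tested, 23 averaged 1 FPKM or more in wild type, of which 20 were higher, 1 lower and 2 not called, and the others were Cd1d1, H2-Q5, H2-Q9, H2-T24, H2-K2 and Nlrc5, which passed wholly through the knockout libraries. Summed over all members, the level was 2872 and 3168 FPKM in the knockout libraries and 891 and 965 FPKM in the wild-type libraries, or 0.469% and 0.5005% of all FPKM in knockout and 0.173% and 0.185% in wild type.

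**Figure D1:**
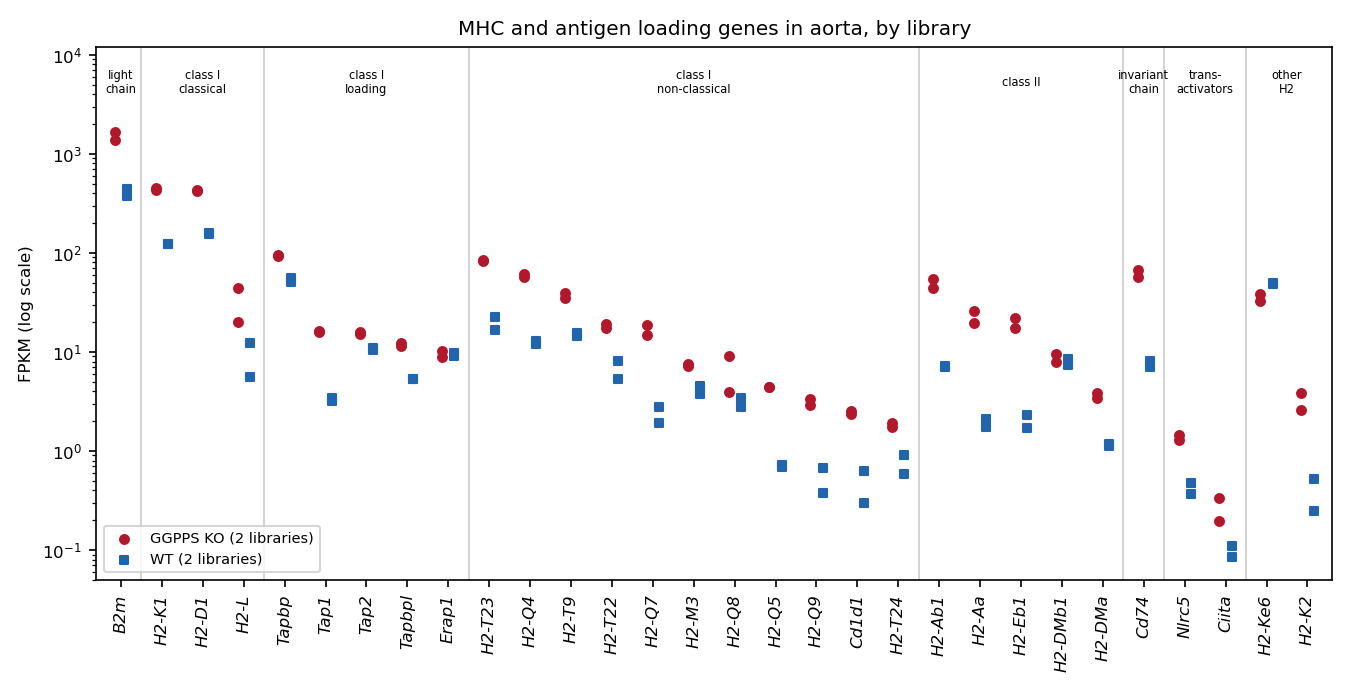
FPKM (log scale) of the 29 tested members and Ciita in each of the 2 knockout (circles) and 2 wild-type (squares) libraries, grouped by class and ordered by knockout mean. The knockout circles lie above the wild-type squares for most genes, overlap them for Erap1 and H2-DMb1, and lie below them for H2-Ke6.

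The light chain was the most abundant member. B2m (chr2:122147686-122153083, plus strand, 4 exons) was at 1385 and 1662 FPKM in the knockout libraries and 380 and 446 FPKM in the wild-type libraries, 3.69-fold higher by the means (log2 fold change 1.88, SE 0.11, limma adjusted p = 6.98e-09). It ranked 66 and 56 by FPKM among all rows in the knockout libraries, against 190 and 169 in the wild-type libraries. Both knockout libraries were far above both wild-type ones.

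All 3 rows of classical class I genes were called higher, of which the H2-L row is doubtful, as given below. The share called higher among all genes tested was 35.2%. H2-K1, which encodes the K heavy chain (chr17:33996017-34000347, minus strand), was at 433 and 450 FPKM in knockout and 122 and 122 FPKM in wild type. Its mean was 441 ± 12.1 FPKM in knockout and 122.0 ± 0.11 FPKM in wild type (SD, n = 2 each), with a log2 fold change of 1.85 (SE 0.09, limma adjusted p = 1.3e-09). H2-D1, the D heavy chain (chr17:35262730-35267499, plus strand), was at 430 and 418 FPKM in knockout and 158 and 156 FPKM in wild type, 2.70-fold higher (log2 fold change 1.43, SE 0.09, limma adjusted p = 1.42e-08). The ratio of K1 to the D1 and H2-L rows together was 0.962 and 0.973 in the knockout libraries and 0.748 and 0.724 in the wild-type libraries, so that both knockout libraries lay above both wild-type ones.

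H2-L, a further classical gene in some strains, is known to be missing from the b haplotype that C57BL/6 mice carry, and it matched no gene of the annotation used here. Its row stood at 20.3 and 44.3 FPKM in knockout and 5.52 and 12.3 FPKM in wild type, so it differed more than 2-fold within each genotype. The row was called higher (log2 fold change 1.74, SE 0.31, limma adjusted p = 0.00023), a call that ended with robust estimation (adjusted p = 0.167). Over the alternatives that kept every library, its limma adjusted p ranged from 0.000116 to 0.167. H2-D1 divided by H2-L gave 21.2 and 9.43 in knockout and 28.6 and 12.7 in wild type, overlapping between genotypes. Summed into a single row, H2-D1 and H2-L were at 450 and 463 FPKM in knockout and 163 and 168 FPKM in wild type (log2 fold change 1.45, SE 0.09, limma adjusted p = 1.13e-08), a sum tried after the values had been seen.

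The loading genes differed by very unequal amounts. Tap1, a subunit of the transporter that carries peptides into the endoplasmic reticulum (chr17:34187553-34197225, plus strand), was at 15.9 and 16.3 FPKM in knockout and 3.40 and 3.21 FPKM in wild type (log2 fold change 1.99, SE 0.12, limma adjusted p = 7.77e-09). Its partner subunit Tap2 (chr17:34203527-34216321, plus strand) was at 15.9 and 15.1 FPKM in knockout and 10.53 and 10.99 FPKM in wild type. Tap2 was called higher at a log2 fold change of 0.49 (SE 0.11, limma adjusted p = 0.00178), and at equal column totals that value was 0.25 with an adjusted p of 0.052 (range over its 12 alternatives 0.000799 to 0.052). The ratio of Tap1 to Tap2 was 0.9998 and 1.08 in the knockout libraries, against 0.323 and 0.292 in the wild-type libraries. The groups did not overlap in this ratio, which was not tested further.

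Tapbp, tapasin, which holds class I chains at the transporter, was at 96.3 and 94.0 FPKM in knockout and 56.2 and 51.4 FPKM in wild type (log2 fold change 0.81, SE 0.10, limma adjusted p = 8.43e-06). Tapbpl, which encodes the tapasin-related peptide editor TAPBPR, was at 12.4 and 11.4 FPKM in knockout and 5.35 and 5.28 FPKM in wild type (log2 fold change 1.03, SE 0.12, limma adjusted p = 4.81e-06). Erap1, the aminopeptidase that trims peptides in the endoplasmic reticulum, was at 8.88 and 10.29 FPKM in knockout and 9.03 and 9.77 FPKM in wild type, and the genotypes overlapped. Its log2 fold change was 0.023 (SE 0.12, limma adjusted p = 0.879), and -0.22 at equal column totals (adjusted p = 0.0997).

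Of 29 non-classical class I genes in the files, 11 were tested, and all 11 were called higher, 7 of them with a mean of 1 FPKM or more in wild type, with log2 fold changes of 0.70 to 2.42. Among all genes tested, 35.2% were called higher. The other 18 stayed below the filter and 11 genes of the class were listed at 0 in every library, so the median over all 29 was 0.061. The class sum was 235 and 253 FPKM in knockout and 63.7 and 69.1 FPKM in wild type, 3.67-fold higher, beside 3.12-fold for the classical rows.

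In the T region, H2-T23, which encodes Qa-1, the ligand of the CD94/NKG2A receptor (chr17:36029773-36032855, minus strand), was at 83.2 and 85.3 FPKM in knockout and 16.8 and 22.6 FPKM in wild type (log2 fold change 2.06, SE 0.13, limma adjusted p = 1.15e-08). It was the most abundant non-classical gene in each library. H2-T22, whose product is bound by a subset of gamma-delta T cells, was at 18.9 and 17.5 FPKM in knockout and 8.04 and 5.30 FPKM in wild type (log2 fold change 1.35), and 19.6% of the 75-base stretches of its longest transcript also occur in transcripts of other genes. H2-T9 was at 35.3 and 39.6 FPKM in knockout and 14.3 and 15.6 FPKM in wild type (1.27 on the log2 scale). Like the H2-Q8 and H2-Q9 rows below, the H2-T9 row matched no gene of the annotation used here. The sequence these rows share with other genes was therefore not measured. H2-T24 was lower in level, at 1.74 and 1.90 FPKM in knockout and 0.586 and 0.901 FPKM in wild type, and was called higher with a log2 fold change of 0.70 (limma adjusted p = 0.00033). H2-T10, of whose 75-base stretches 14.3% occur in H2-T22, at 0.655 and 0.685 FPKM in knockout and 0.288 and 0.386 FPKM in wild type, and H2-Bl were not tested, and H2-T3 was listed at 0.

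In the Q region, H2-Q4 (chr17:35379617-35385290, plus strand) was at 57.0 and 61.3 FPKM in knockout and 12.1 and 12.8 FPKM in wild type (log2 fold change 2.16, SE 0.11, limma adjusted p = 1.29e-09). H2-Q7, which encodes the Qa-2 antigen, was at 14.8 and 18.9 FPKM in knockout and 1.91 and 2.78 FPKM in wild type, with a log2 fold change of 2.42 (SE 0.15, limma adjusted p = 1.3e-08). H2-Q5, a gene annotated as a polymorphic pseudogene, was at 4.41 FPKM in both knockout libraries and 0.686 and 0.725 FPKM in wild type (1.67 on the log2 scale). H2-Q9, another Qa-2 gene, was at 2.88 and 3.36 FPKM in knockout and 0.674 and 0.376 FPKM in wild type (1.44 on the log2 scale).

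The copies of the Qa-2 genes could not be read singly with confidence. H2-Q8 was at 3.90 and 9.17 FPKM in knockout and 2.76 and 3.44 FPKM in wild type. Its log2 fold change of 0.79 (SE 0.24, limma adjusted p = 0.0107) fell short of the threshold when knockout library 2 was dropped (0.26, adjusted p = 0.15), and was 1.32 when knockout library 1 was dropped. The call was lost too without a filter (adjusted p = 0.121) and under robust estimation (adjusted p = 0.267). Over the alternatives that kept every library, its limma adjusted p ranged from 0.0121 to 0.267. H2-Q6 was at 1.75 and 0.0028 FPKM in knockout and 0.0053 and 0.0015 FPKM in wild type, so a single knockout library held nearly all of it. Of all stretches of 75 bases in the longest transcript, 17.9% in H2-Q6, 19.1% in H2-Q7 and 20.7% in H2-Q5 also occurred in transcripts of other genes, against 1.3% in H2-K1 and none in B2m, Cd74, H2-Aa, H2-Ab1 and H2-Eb1. The sum of H2-Q6, H2-Q7, H2-Q8 and H2-Q9, tried after the values had been seen, was 23.4 and 31.4 FPKM in knockout and 5.35 and 6.59 FPKM in wild type (log2 fold change 2.02, SE 0.15, limma adjusted p = 4.84e-08). H2-Q1, H2-Q2 and H2-Q10 were under 0.1 FPKM throughout.

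Most genes of the M region had no listed value above 0. Of its 12 genes, 9 were listed at 0 in every library, among them all of the H2-M10 genes, which are known from the vomeronasal organ. H2-M2 and H2-M5 were below the filter, with a highest value of 0.413 FPKM. H2-M3, which presents N-formylated peptides (chr17:37270220-37274484, plus strand), was the exception, at 7.18 and 7.62 FPKM in knockout and 4.57 and 3.75 FPKM in wild type (log2 fold change 0.71, SE 0.13, limma adjusted p = 0.000273). Cd1d1, which presents lipids to NKT cells and lies outside the H2 complex (chr3:86995834-86999441, minus strand), was at 2.55 and 2.36 FPKM in knockout and 0.629 and 0.296 FPKM in wild type (log2 fold change 1.25, SE 0.14, limma adjusted p = 2.6e-06). Of its 75-base stretches, 19.4% also occur in Cd1d2, which was listed at 0.

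**Figure D2:**
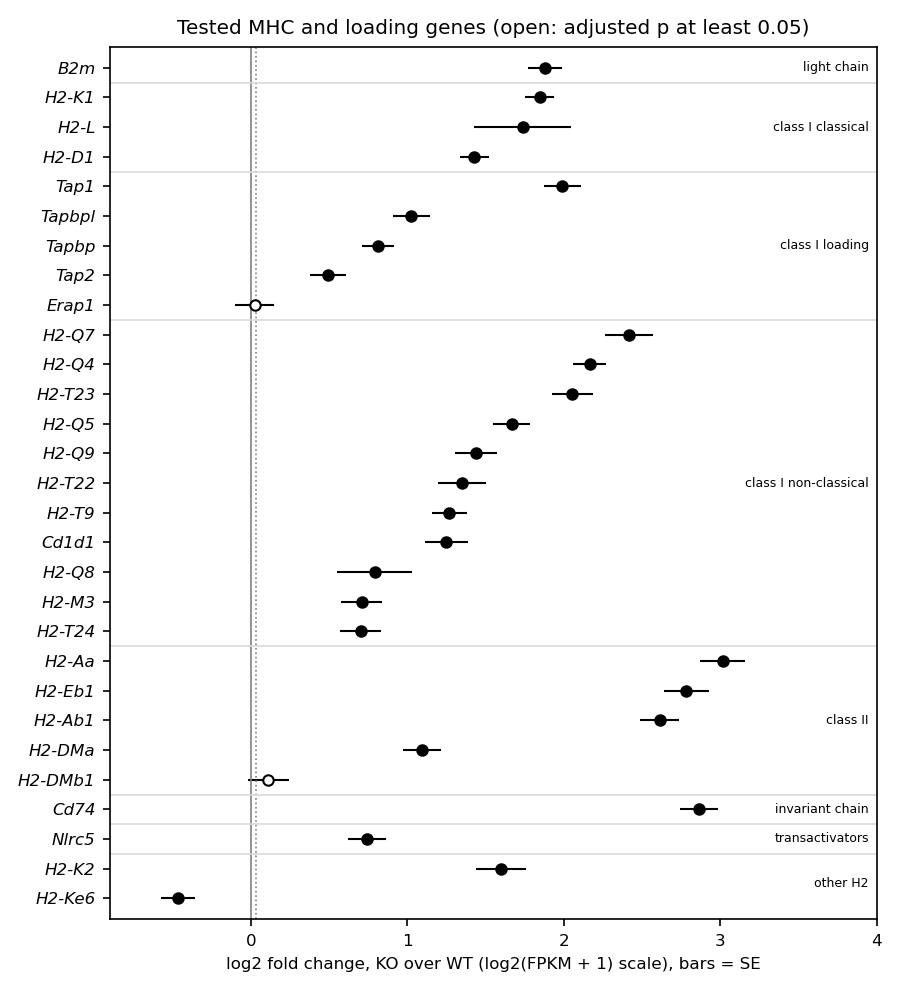
Log2 fold change, knockout over wild type, of the 29 tested members with its SE (bars), on the log2(FPKM + 1) scale, grouped by class. Filled points were called and open points were not, and the dotted line is the median of all genes tested (0.03). The classical class II chains and Cd74 lie furthest right, between 2.61 and 3.02. In the class II group H2-DMa lies lower, at 1.09, and H2-DMb1, like Erap1, lies near the line.

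The classical class II chains were lower in level than classical class I and had larger fold changes. H2-Aa, the A alpha chain (chr17:34282744-34287823, minus strand), was at 25.7 and 19.7 FPKM in knockout and 2.08 and 1.74 FPKM in wild type, 11.9-fold higher (log2 fold change 3.02, SE 0.14, limma adjusted p = 8.16e-10). H2-Ab1, the A beta chain, was at 54.8 and 43.7 FPKM in knockout and 7.04 and 7.28 FPKM in wild type (log2 fold change 2.61, SE 0.12, limma adjusted p = 8.96e-10). H2-Eb1, the E beta chain, was at 22.2 and 17.5 FPKM in knockout and 2.31 and 1.72 FPKM in wild type (log2 fold change 2.78, SE 0.15, limma adjusted p = 2.1e-09). H2-Ea-ps, the E alpha locus that is a pseudogene in this strain, was listed at 0 in all libraries, and H2-Eb2 reached at most 0.026 FPKM. Cd74, the invariant chain that fills the class II groove until peptide is loaded, was at 66.8 and 57.0 FPKM in knockout and 8.16 and 7.08 FPKM in wild type, 8.12-fold higher (log2 fold change 2.86, SE 0.12, limma adjusted p = 2.71e-10). In H2-Aa, H2-Ab1, H2-Eb1 and Cd74 both knockout libraries were well above both wild-type ones.

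The ratio of Cd74 to the summed H2-Aa, H2-Ab1 and H2-Eb1 was 0.650 and 0.705 in the knockout libraries and 0.714 and 0.659 in the wild-type libraries, and the genotypes overlapped. H2-Aa over H2-Ab1 was 0.470 and 0.450 in knockout, against 0.296 and 0.240 in wild type. The 3 chains summed to 103 and 80.9 FPKM in knockout and 11.4 and 10.7 FPKM in wild type, 8.28-fold higher. As a percentage of the summed classical class I rows they came to 11.6 and 8.86 in knockout and 4.01 and 3.70 in wild type. The groups did not overlap in this ratio, but with 2 libraries per genotype no two-sided exact permutation p lies below 0.333, so the difference between the classes was not tested further.

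The genes for peptide exchange in class II had smaller fold changes. H2-DMa, the alpha chain of the DM molecule that swaps the invariant chain fragment for peptide, was at 3.81 and 3.39 FPKM in knockout and 1.12 and 1.19 FPKM in wild type (log2 fold change 1.09, SE 0.12, limma adjusted p = 3.7e-06). H2-DMb1, a beta chain of DM, was at 9.43 and 7.89 FPKM in knockout and 7.40 and 8.45 FPKM in wild type and was not called (log2 fold change 0.11, SE 0.13, limma adjusted p = 0.464, and -0.12 at equal column totals). H2-DMb2 was listed at 0 in wild type and stood at 0.206 and 0.345 FPKM in knockout, and 19.1% of the 75-base stretches of H2-DMb1 also occur in H2-DMb2. H2-Oa and H2-Ob, chains of the DO molecule that restrains DM and is known from B cells, were under 0.3 FPKM throughout. Of the 10 class II genes in the files, 5 were tested and 4 were called higher, and the median over all 10 was 0.32. Beside this stands a share of 35.2% called higher among all genes tested.

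The transactivators were low. Nlrc5 (chr8:94434356-94527272, plus strand) was at 1.29 and 1.47 FPKM in knockout and 0.475 and 0.365 FPKM in wild type, 3.28-fold higher by the means (log2 fold change 0.74, SE 0.12, limma adjusted p = 0.000114). The log2 value depended on the pseudocount, at 1.51 with 0.1 and 0.23 with 5. Ciita was at 0.336 and 0.194 FPKM in knockout and 0.0847 and 0.110 FPKM in wild type and was below the filter. Both knockout libraries lay above both wild-type ones in Ciita, at levels too low for the test.

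A pair of H2 symbols belong to genes not known to present antigen. H2-Ke6, also called Hsd17b8, a dehydrogenase of mitochondrial fatty acid synthesis (chr17:34026033-34028060, minus strand), was at 32.8 and 38.4 FPKM in knockout and 48.9 and 50.1 FPKM in wild type. It was the single member called lower (log2 fold change -0.47, SE 0.11, limma adjusted p = 0.00194), and 94.2% of its 75-base stretches also occur in the overlapping gene model Gm20427. H2-K2, a transcribed pseudogene next to H2-K1, was at 2.56 and 3.89 FPKM in knockout and 0.249 and 0.522 FPKM in wild type (log2 fold change 1.60, SE 0.16, limma adjusted p = 1.04e-06).

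**Figure D3:**
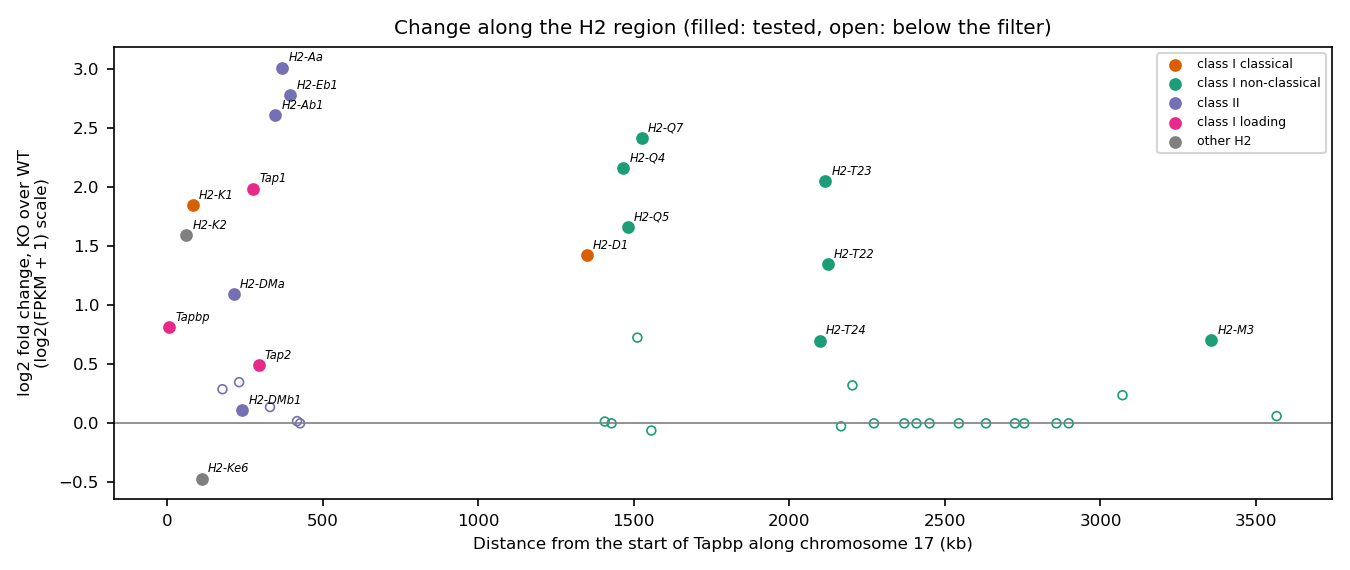
Log2 fold change, knockout over wild type, of the members on chromosome 17 that have an annotated position (H2-L, H2-Q8, H2-Q9 and H2-T9 have none) against distance in kb from the start of Tapbp, coloured by class, with tested members filled and members below the filter open. Tested members above 0 lie along the whole region, with H2-Aa, H2-Eb1 and H2-Ab1 at the top (2.61 to 3.02), Tap1 (1.99) apart from its neighbour Tap2 (0.49), and H2-Ke6 below 0.

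Neighbours in the H2 region differed unequally. Tap1 and Psmb9, a subunit of the immunoproteasome, overlap at their 5′ ends on opposite strands, and strand use in counting is not given, so reads there cannot be assigned with certainty. Psmb9 was at 12.3 and 12.0005 FPKM in knockout and 3.61 and 4.47 FPKM in wild type (log2 fold change 1.39, SE 0.13, limma adjusted p = 5.08e-07). Psmb8, which lies between Tap1 and Tap2, was at 29.1 and 27.4 FPKM in knockout and 4.26 and 4.03 FPKM in wild type (log2 fold change 2.51, SE 0.12, limma adjusted p = 6.73e-10). Both are proteasome subunits that are exchanged for constitutive ones and change the peptides made for class I. Psmb10, the remaining exchanged subunit, encoded elsewhere in the genome, was at 34.6 and 31.1 FPKM in knockout and 6.74 and 8.76 FPKM in wild type (log2 fold change 1.96). With the activator genes Psme1, Psme2 and Psme3, all 6 of this list were called higher, also at equal column totals. Their constitutive counterparts Psmb5, Psmb6 and Psmb7 were called higher too by 0.70 to 1.22 on the log2 scale, also at equal column totals. Over all genes tested, 35.2% were called higher as deposited. Psmb5 was at 310 and 292 FPKM in knockout and 132 and 126 FPKM in wild type.

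Of 6 chaperone genes that serve class I folding, 5 were called higher, and 3 at equal column totals. Hspa5, a general chaperone of the endoplasmic reticulum, had the largest difference (1.17 on the log2 scale), while Calr, calreticulin of the loading complex, was at 389 and 476 FPKM in knockout and 369 and 367 FPKM in wild type and was not called (limma adjusted p = 0.0731). Of 7 genes for processing in the class II pathway, 6 were called higher, and 5 at equal column totals. The share of all genes tested called higher was 35.2% as deposited, and their number moved from 4332 to 3095 at equal column totals. Ctss, cathepsin S, which cuts the invariant chain, was at 46.4 and 46.5 FPKM in knockout and 2.63 and 2.07 FPKM in wild type (log2 fold change 3.83, SE 0.12, limma adjusted p = 2.12e-11). Ifi30, the thiol reductase of class II processing, overlapped between genotypes, at 62.2 and 76.5 FPKM in knockout and 58.2 and 67.3 FPKM in wild type.

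None of 7 transcription partners of CIITA and NLRC5 was called higher, and 4 were called lower, or 6 at equal column totals. Over all genes tested, 30.6% were lower as deposited, and the number lower moved from 3764 to 5620 at equal column totals. Rfx5, the DNA-binding subunit of the RFX complex, was at 4.05 and 3.75 FPKM in knockout and 7.04 and 5.98 FPKM in wild type (log2 fold change -0.61, SE 0.13, limma adjusted p = 0.0008). Ifng, interferon gamma, was listed at 0 in every library. Irf1, an activator of class I genes, was at 11.3 and 11.6 FPKM in knockout and 8.57 and 7.99 FPKM in wild type, a call (log2 fold change 0.42, limma adjusted p = 0.00609) that ended at equal column totals (adjusted p = 0.145). Of 7 tested genes of the interferon gamma pathway 4 were higher and 2 lower, and at equal column totals 2 and 2. Beside these stand 35.2% higher and 30.6% lower over all genes tested, as deposited. Of 6 tested genes of the type I interferon pathway 5 were higher and 3 at equal column totals, led by Irf7, at 76.9 and 70.7 FPKM in knockout and 1.73 and 1.73 FPKM in wild type.

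MHC-like genes outside H2 moved in both directions. Fcgrt, the neonatal Fc receptor, which also pairs with beta-2 microglobulin, was at 63.2 and 67.5 FPKM in knockout and 103 and 98.5 FPKM in wild type (log2 fold change -0.62, SE 0.10, limma adjusted p = 8.81e-05). Mr1, which presents vitamin B metabolites to MAIT cells, was at 6.15 and 8.05 FPKM in knockout and 9.94 and 12.5 FPKM in wild type (log2 fold change -0.60, limma adjusted p = 0.00265). Procr, the endothelial protein C receptor, an MHC-like protein, was at 65.8 and 61.2 FPKM in knockout and 13.2 and 11.4 FPKM in wild type (log2 fold change 2.28, SE 0.11, limma adjusted p = 1.22e-09). Raet1d, a ligand of the NKG2D receptor, was at 3.28 and 2.79 FPKM in knockout and 0.268 and 0.333 FPKM in wild type (log2 fold change 1.63, limma adjusted p = 8.59e-08). In all, 4 of the 6 tested genes of this list were higher and 2 lower, or 3 and 2 at equal column totals. Over all genes tested, 35.2% were higher and 30.6% lower as deposited. Raet1d and Raet1e passed the filter wholly through the knockout libraries, and the 4 genes that averaged 1 FPKM or more in wild type split into 2 higher, Procr and Hfe, and 2 lower. The call of Hfe (log2 fold change 0.36, limma adjusted p = 0.0241) ended at equal column totals (0.14, adjusted p = 0.312). Of 5 tested ligands of T cell costimulation or inhibition, Cd80, Cd86 and Cd274 were called higher, but these passed the filter wholly through the knockout libraries. The 2 ligands that averaged 1 FPKM or more in wild type, Cd40 and Icosl, were not called, though Icosl was lower at equal column totals. Cd80, a ligand of CD28, was at 5.38 and 5.30 FPKM in knockout and 0.247 and 0.229 FPKM in wild type (log2 fold change 2.36, limma adjusted p = 1.71e-09).

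**Figure D4:**
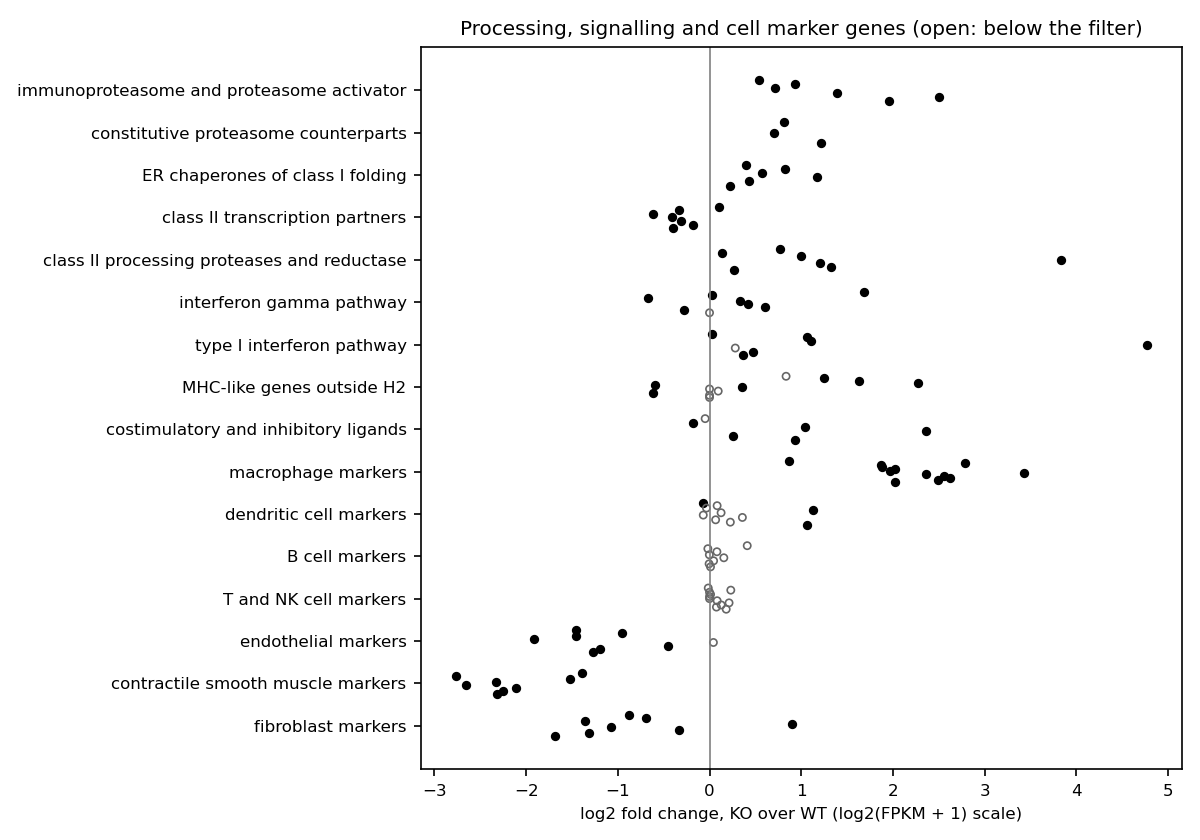
Log2 fold change, knockout over wild type on the log2(FPKM + 1) scale, of genes of processing, signalling and cell marker lists, 1 point per gene, with genes below the filter open. Immunoproteasome and proteasome activator genes (6 of 6 called) and macrophage markers (12 of 12 called) lie right of 0. Class II transcription partners lie mostly left of it, and B cell and T and NK cell markers cluster at 0 below the filter. Over all genes tested, 35.2% were called higher.

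Markers of cells known to carry class II differed between the same libraries. All 12 macrophage markers were called higher, 8 of them with a mean of 1 FPKM or more in wild type, and their summed level was 559 and 473 FPKM in knockout and 76.5 and 77.1 FPKM in wild type, with none listed at 0. Csf1r, the receptor for macrophage growth factor, was at 12.9 and 12.4 FPKM in knockout and 2.25 and 2.73 FPKM in wild type. The dendritic cell list of 10 genes summed to 8.58 and 9.40 FPKM in knockout and 6.46 and 5.90 FPKM in wild type, with Flt3, Xcr1, Clec9a, Ccr7 and Cd209a all under 0.3 FPKM. Zbtb46, which was not called, or lower at equal column totals, was at 4.78 and 5.75 FPKM in knockout and 5.81 and 5.36 FPKM in wild type and made up most of that sum in wild type. Without it, a sum tried after the values had been seen, the list was at 3.799 and 3.656 FPKM in knockout and 0.659 and 0.540 FPKM in wild type. Itgax, the CD11c integrin chain that macrophages can also carry, was at 1.06 and 1.37 FPKM in knockout and 0.009 and 0.022 FPKM in wild type, and Batf3, a transcription factor of cross-presenting dendritic cells, was at 1.66 and 1.51 FPKM in knockout and 0.219 and 0.257 FPKM in wild type. Both were called higher, but passed the filter wholly through the knockout libraries, and Itgax did not pass it at equal column totals. The 8 B cell markers summed to 0.745 and 0.967 FPKM in knockout and 0.327 and 0.297 FPKM in wild type. None passed the filter. T and NK cell markers summed to 1.11 and 0.472 FPKM in knockout and 0.0972 and 0.0832 FPKM in wild type, with none tested and Cd8b1, Ncr1 and Gzmb listed at 0. Endothelial markers, by contrast, were called lower in 7 of 7 tested cases and summed to 87.3 and 103 FPKM in knockout and 269 and 278 FPKM in wild type. Contractile smooth muscle markers were lower in 8 of 8 cases, and of 8 fibroblast markers 7 were lower and 1, Lum, was higher. Beside all these marker counts stand 35.2% higher and 30.6% lower over all genes tested.

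The summed class II chains divided by Csf1r came to 7.98 and 6.53 in knockout and 5.09 and 3.94 in wild type, and divided by Lyz2, lysozyme, to 0.622 and 0.586 in knockout and 0.575 and 0.483 in wild type. Divided by Cd68, a lysosomal protein of macrophages, they came to 3.87 and 3.20 in knockout and 6.13 and 9.23 in wild type. The direction of the ratio thus depended on the marker chosen. In bulk tissue more cells of a type and more RNA per cell cannot be told apart, and the part of macrophage number in the class II and class I differences was not tested.

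**Figure D5:**
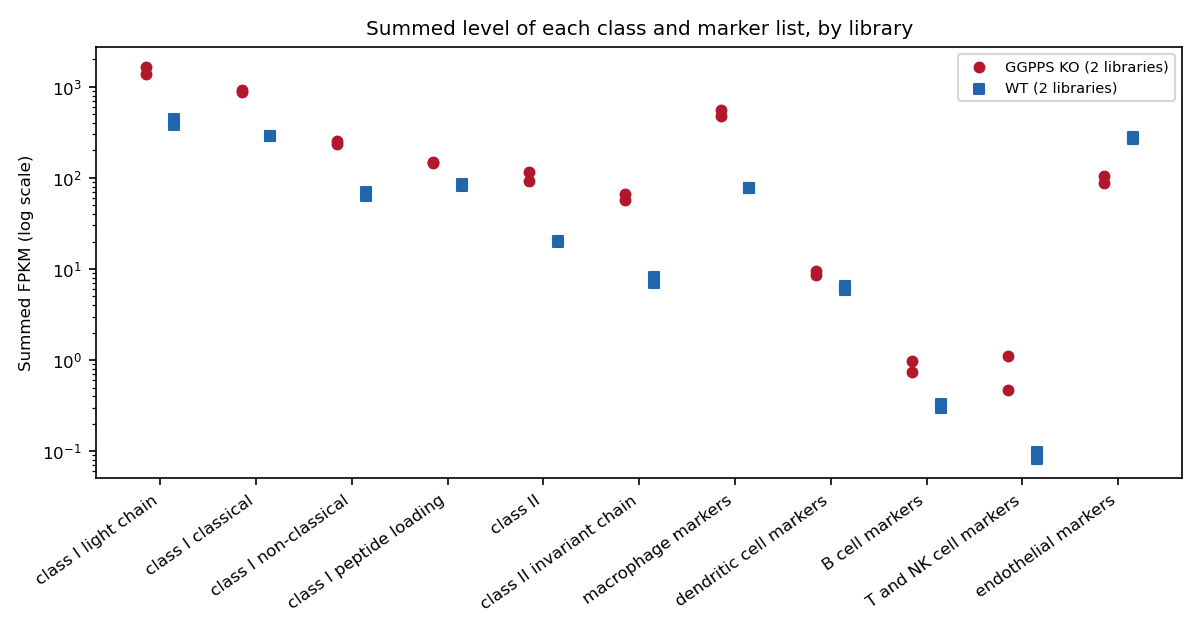
Summed FPKM (log scale) of each MHC class and each cell marker list in the 2 knockout (circles) and 2 wild-type (squares) libraries. The 12 macrophage markers (559 and 473 FPKM in knockout, 76.5 and 77.1 FPKM in wild type) are higher in knockout beside the class II genes and the invariant chain, while B cell and T and NK cell sums stay near or under 1 FPKM and endothelial markers are lower in knockout.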

How the data were processed

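RNA of 4 aorta libraries, 2 GGPPS knockout and 2 wild type by the genotype label, was sequenced. The authors deposited FPKM values in a separate file for each library, with the unit read from the file headers. Build mm10, DESeq2 1.16.1, featureCounts 1.5.0-p3 and HISAT2 2.0.5 appear, per the submitters' processing notes, with no roles given. The program that computed FPKM and the use of strand are not given in the sources used here.

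No common step was found among values under 0.3 FPKM (the commonest ratio between libraries covered 0.302% to 0.485% of genes), so depth is unknown and no count model was used. The test was limma 3.58.1 (R 4.3.3), trend fitted, pseudocount 1, tried on simulated data, with 13.4 total degrees of freedom, of which most come from other genes. In the simulated data far fewer genes were changed than were called here, so that trial does not vouch for the calls. Members and gene lists were chosen with earlier results of these data known. All members were described, with values for those called and for classical, loading, light chain, invariant chain and transactivator genes. From other lists up to 3 called genes by smallest p could be named, besides a few fixed ones, and Csf1r, Lyz2, Cd68, Fcgrt, Mr1, Calr, Ifi30, Myh11, Zbtb46, Cd40, Icosl, other markers named at or near 0 and the ratios were picked after values were seen. Positions are from GENCODE M21 (mm10), which matched 49 of 53 members by symbol. Shared transcript sequence was counted over 75-base stretches of the longest transcript. Alternatives were pseudocounts of 0.1 and 5, no filter and 5 FPKM, equal totals, equal upper quartiles, no trend, robust estimation and leaving out each library.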

Additional observations from a re-analysis of the deposited data

How the results depend on the processing

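Across 12 other settings, 24 of 27 called members stayed past the threshold in the same direction wherever they were tested. Of 328 member values, 323 stayed on their side of the threshold and 5 called ones missed it, for H2-L, H2-Q8 and Tap2, and none of the called members changed sign. The number of non-classical genes called higher, 11, was 6 under a filter of 5 FPKM. With a knockout library left out, genes under 1 FPKM in both wild-type libraries could not pass the filter at all. Counts of called genes from those fits are therefore not compared. The members called higher, 26, were 30 with no filter and 18 at 5 FPKM. All genes called higher, 4332, were 4609 with no filter and 3480 at 5 FPKM. The filter sets which genes are tested, so these counts do not show a change in the members themselves. The classical class I median of 1.74, which is the value of the doubtful H2-L row itself, was 1.41 with a pseudocount of 5, 1.49 at equal column totals and 1.44 to 1.87 when a library was left out. The non-classical median over all members in the files, 0.061, was 0.46 and 0.013 with pseudocounts of 0.1 and 5, and 0 to 0.061 when a library was left out. The class II median of 0.32 was 1.62 and 0.078 with those pseudocounts. These medians rest on genes near 0 FPKM. No paired analysis was possible because the labels number the libraries in a single run, with no number shared between genotypes. With a library left out, the lone library of its genotype is assumed to vary like the other group. Depth is unknown, so precision rests on 2 libraries per genotype.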
